A study of Mus musculus with 21 samples.

Results

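The genes described here mark the granule cells of the dentate gyrus and were measured in a mouse array series on the Nogo receptor NgR (gene *Rtn4r*). They were *Prox1*, *Glis3*, *Rfx3*, *C1ql2*, *C1ql3*, *Calb1*, *Dsp*, *Npnt*, *Il16* and *Tdo2*. The members were listed by symbol, and every probe set annotated to 1 of these symbols was taken, which gave 29 of 45037 probe sets and 10 of the 12499 genes tested. The values of a gene come from the one of its probe sets with the highest mean level. All 10 genes passed the filter on low values, as did 25 of their 29 probe sets. The series held 21 Affymetrix arrays of dentate gyrus RNA, 3 in each of 7 groups. Bitransgenic mice carried an NgR transgene under a tetracycline-responsive promoter (pTRE) together with the transactivator tTA, which doxycycline blocks. In set 1, bitransgenic mice on water after doxycycline removal were compared with bitransgenic mice on continuous dietary doxycycline and with monotransgenic mice on water, which carry NgR and lack tTA. In experiment 2, bitransgenic mice on water that had never met doxycycline were compared with monotransgenic mice on water, and set 3 holds bitransgenic and monotransgenic mice with no treatment named in the labels. The labels name no promoter for tTA and give neither age nor sex. Nor do they tie each sample to an animal of its own, so the spread behind each p-value is that between samples and may be technical. Arrays within a group are numbered in deposit order, which carries no meaning and pairs nothing.

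Dentate granule cells are the principal excitatory neurons of the dentate gyrus. They receive input from the entorhinal cortex and send mossy fibres to CA3, and in mice new granule cells are added through life. The genes described here belong to the identity of this cell type: transcription factors that set or hold it, secreted proteins of its mossy fibre synapses, its calcium buffer, and adhesion, matrix, cytokine and metabolic genes by which it is told from other hippocampal neurons. In bulk tissue, fewer granule cells and less RNA per granule cell cannot be told apart.

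The promoter windows of 4 genes are shown, since the results turn on these genes: *C1ql2* and *C1ql3*, which varied together, *Glis3*, which had the lowest p of the members against monotransgenic mice in set 1, and *Tdo2*, which varied against *C1ql2*. Each window holds the 250 bases before the gene start, 5′ to 3′ on the strand of the gene, from RefSeq on GRCm38.p6. The *C1ql2* window is chr1:120340332-120340581 on the plus strand, the *C1ql3* window chr2:13010865-13011114 on the minus strand, the *Glis3* window chr19:28680078-28680327 on the minus strand and the *Tdo2* window chr3:81975729-81975978 on the minus strand. Capitals mark an E-box (CANNTG) in the first 3 windows and a TATA box (TATAAA) in the last.
C1ql2: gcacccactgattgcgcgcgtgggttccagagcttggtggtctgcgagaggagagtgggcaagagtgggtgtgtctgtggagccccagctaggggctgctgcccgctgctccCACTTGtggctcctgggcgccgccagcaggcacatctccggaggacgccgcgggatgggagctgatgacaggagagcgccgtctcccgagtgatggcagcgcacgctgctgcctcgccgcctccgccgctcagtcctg
C1ql3: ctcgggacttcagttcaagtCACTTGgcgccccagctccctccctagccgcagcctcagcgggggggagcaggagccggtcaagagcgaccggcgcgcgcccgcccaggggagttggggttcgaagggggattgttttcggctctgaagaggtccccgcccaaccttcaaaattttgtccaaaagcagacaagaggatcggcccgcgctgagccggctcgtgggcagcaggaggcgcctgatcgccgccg
Glis3: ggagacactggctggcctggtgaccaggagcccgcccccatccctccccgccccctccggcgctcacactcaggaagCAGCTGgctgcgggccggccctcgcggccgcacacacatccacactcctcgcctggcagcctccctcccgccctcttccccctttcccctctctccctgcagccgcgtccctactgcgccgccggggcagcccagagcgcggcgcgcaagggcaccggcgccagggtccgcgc
Tdo2: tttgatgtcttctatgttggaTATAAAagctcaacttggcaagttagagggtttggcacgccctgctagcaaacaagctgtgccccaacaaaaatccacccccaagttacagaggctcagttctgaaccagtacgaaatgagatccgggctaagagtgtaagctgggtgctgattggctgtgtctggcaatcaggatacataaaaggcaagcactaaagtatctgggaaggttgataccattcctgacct

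The E-box started 138 bases before the gene start in *C1ql2*, 230 in *C1ql3* and 173 in *Glis3*, and the *Tdo2* window held none. *C1ql2* and *C1ql3* shared the form CACTTG, which also occurred once among the windows of *Prox1* and in 11.6% of all 32851 promoter windows of this length. That form was searched for after the windows had been read. Of the members, 9 matched the promoter table, with 13 windows between them, and *Calb1* did not. On both strands, an E-box occurred in 8 of the 13 windows against 66.2% of all windows, and the GC box GGGCGG in 7 against 32.7%. A TATA box occurred in 2 windows, those of *Prox1* and *Tdo2*, against 12.4% of all windows, the RFX half-site GTTGCC in 1, of *Il16*, against 10.4%, and the CRE TGACGTCA in none against 1.55%. CACTTG is a form of CANNTG, so those counts overlap. These are matches of letters in the window.

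*Rtn4r*, the gene carried by the transgene, separated the groups by their labels. Arrays of bitransgenic mice outside the diet group are called transgene on, although the labels of set 3 name no treatment. Its intensity was 254 to 1470 on those 9 arrays, against 73.1 to 111 on the 3 arrays of the doxycycline diet and 63.8 to 185 on the 9 monotransgenic arrays. No array was a copy of another: the highest correlation between any pair was 0.9872. Replicates varied most in experiment 2. The SD between its replicates, taken as the median over genes on the log2 scale, was 0.30 in bitransgenic and 0.28 in monotransgenic mice, against 0.14 to 0.16 in the other 5 groups. Its log2 ratios of 3′ to 5′ actin signal, a measure of RNA quality, reached 6.45, against at most 5.12 in set 1 and 4.63 in set 3. The 10 granule cell genes lay above the filter on low values on all 21 arrays, with the lowest intensity of any member at 98.75 for *Glis3*, so these markers were present wherever the labels name the dentate gyrus.

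*C1ql2* codes for a C1q-like protein that mossy fibres secrete at their synapses, where in mouse it takes part in gathering kainate receptors on CA3 neurons. It had 289.6, 297 and 210.1 units of intensity after doxycycline removal, 568.2, 587.9 and 783.6 on the doxycycline diet, and 923.5, 1105 and 886.9 in the monotransgenic mice of set 1. The 3 groups of set 1 did not overlap, with the diet group between the other two. Experiment 2 gave 256.5, 156.3 and 210.4 in bitransgenic mice, against 136, 441.7 and 1234 in monotransgenic mice. Set 3 gave 200.9, 288.8 and 353.1 in bitransgenic mice, against 886.2, 134.8 and 1132 in monotransgenic mice. All 9 arrays with the transgene on lay in a narrow low range, from 156.3 to 353.1, while the monotransgenic arrays of experiment 2 and set 3 covered the whole range of the gene, from 134.8 to 1234. Array 1 of the monotransgenic mice in experiment 2 and array 2 of those in set 3 were below every array with the transgene on, and the groups overlapped there.

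**Figure D1:**
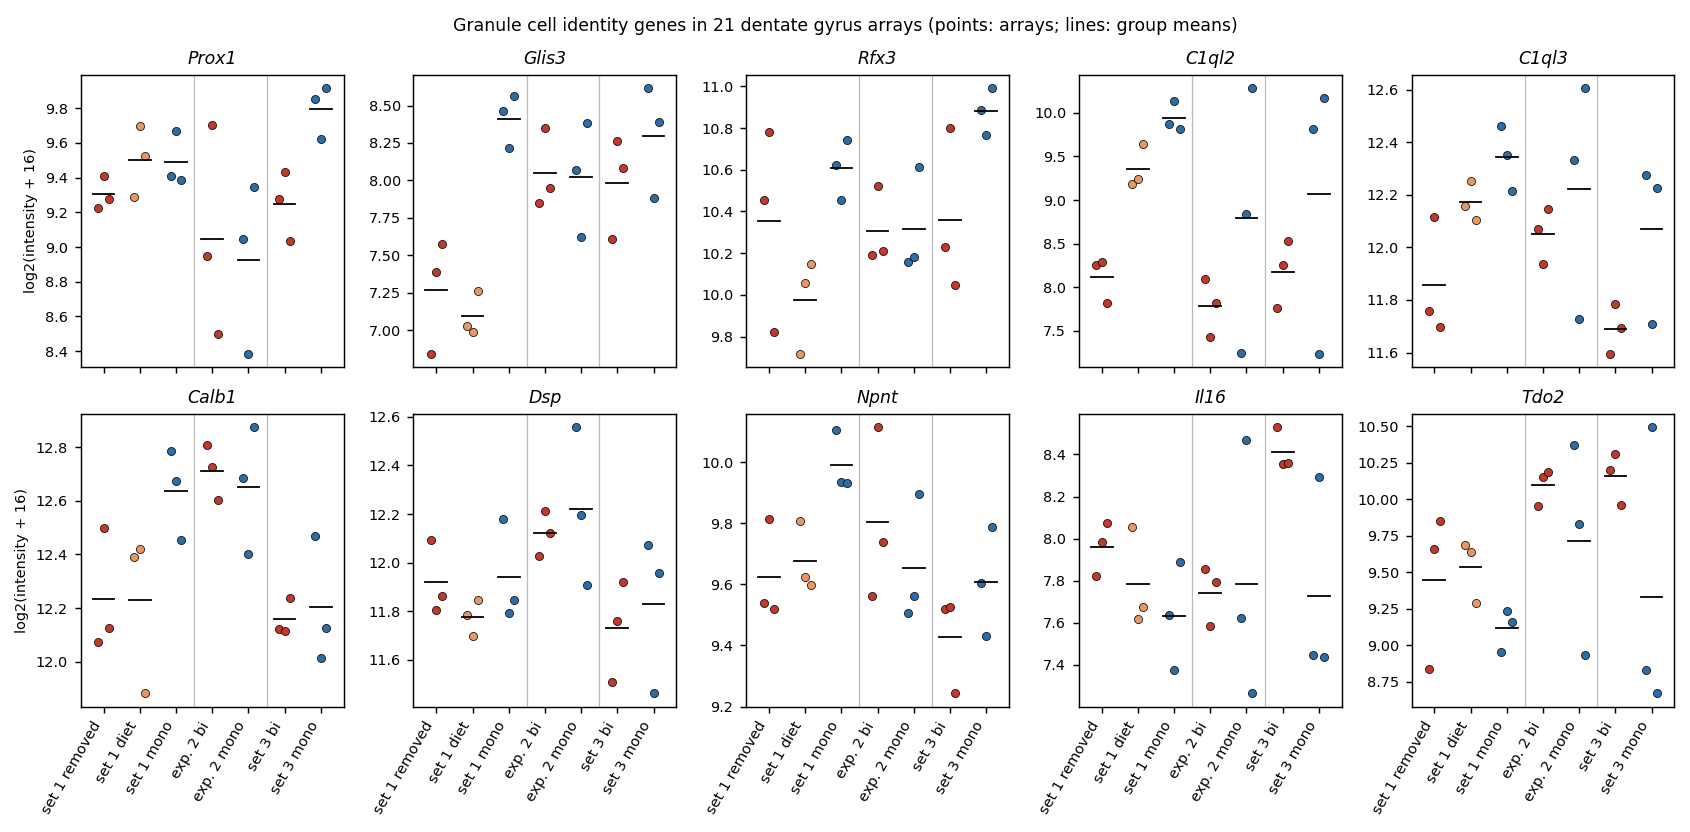
Deposited intensity of each granule cell identity gene on each of the 21 arrays (log axis), by group, with the bitransgenic groups left of their monotransgenic group in each set; points are arrays and red, orange and blue stand for transgene on, doxycycline diet and monotransgenic. *C1ql2* lies between 156.3 and 353.1 on all 9 arrays with the transgene on and between 134.8 and 1234 on the monotransgenic arrays.

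On the log2 scale after normalization, *C1ql2* stood 1.80 ± 0.60 (SE) lower after doxycycline removal than in monotransgenic mice, a difference of -1.80 that is a 3.48-fold lower level. The limma adjusted p over all genes was 0.348, so the difference did not pass the threshold of 0.05. Against the diet group the difference was -1.21 ± 0.60 (adjusted p = 0.999), and the diet group itself differed from monotransgenic mice by -0.59 ± 0.60 (adjusted p = 1). The difference was -0.98 ± 0.60 in experiment 2 (adjusted p = 0.443) and -0.93 ± 0.60 in set 3 (adjusted p = 1). Over the 3 sets it averaged -1.24 ± 0.35, with a 95% interval of -1.96 to -0.51 and an adjusted p of 0.126. The exact permutation test of this single value, two-sided over 8000 relabelings of arrays within sets, gave p = 0.014. With 3 arrays against 3, an exact test within 1 set cannot go below 0.1. All values of *C1ql2* come from its only probe set.

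In set 1, where the replicates of each group lay close together, the call depended on which arrays set the spread. A limma fit to the 9 arrays of set 1 alone gave the same differences with adjusted p = 9.74e-05 relative to monotransgenic mice and 0.00381 relative to the diet. Apart from leaving out single arrays, the settings gave an adjusted p of 9.74e-05 to 0.418 for the comparison with monotransgenic mice. For that with the diet they gave 0.00381 to 0.999. Without single arrays the adjusted p was 0.461 to 0.747 against monotransgenic mice and at least 0.999 against the diet. The values of experiment 2 and set 3 moved with single arrays. In set 3 the titles of monotransgenic array 2 and bitransgenic array 1 share a number, as do those of monotransgenic array 3 and bitransgenic array 3. With that number as a factor, which leaves the difference to these 2 pairs, it was -0.57 (adjusted p = 1). Without array 2 of the monotransgenic mice in set 3, the *C1ql2* difference in set 3 was -1.87 (adjusted p = 0.109), against -0.54 and -0.38 without array 1 or array 3 of that group, and the mean over sets was -1.55 (adjusted p = 0.0027). Without array 1 of the monotransgenic mice in experiment 2, the difference there was -1.73 (adjusted p = 0.0767) and the mean over sets was -1.49 (adjusted p = 0.0294). Without array 3 of that group, whose title lacks a suffix that the titles of the other arrays of experiment 2 carry, the difference in experiment 2 was -0.24. Within groups, *C1ql2* varied more between replicates than almost any other gene: its SD of 0.87 on the log2 scale stood at the 99.7th percentile of all genes tested, and *Tdo2*, at 0.54, at the 97.4th. The other 8 members had SDs of 0.17 to 0.34.

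*Ogn*, a matrix proteoglycan gene of the meninges and of fibroblasts, also varied widely between the monotransgenic arrays. It was high on the arrays high in *C1ql2* in experiment 2 and set 3, but in experiment 2 the array lowest in *C1ql2* (array 1) was not the lowest in *Ogn* (array 2). Its intensity was 556, 728 and 636 in the monotransgenic mice of set 1, 153, 79.6 and 525 in those of experiment 2 and 824, 41.2 and 652 in those of set 3. It was 11.7 to 26.8 after doxycycline removal, 8.54 to 26.8 on the diet, 27.9 to 71.9 in the bitransgenic mice of experiment 2 and 24.1 to 143 in those of set 3. Across the 21 arrays with set means removed, *C1ql2* and *Ogn* had a Pearson r of 0.73 (Spearman rho 0.59, and r 0.67 without the 2 arrays farthest from the median). That correlation includes the differences between groups and is a description. The list of 7 meningeal and fibroblast markers held 4 genes above the filter, while *Col1a1*, *Igf2* and *Slc6a13* lay under it. Its summed intensity was 57 to 94 after removal, 82 to 109 on the diet and 703 to 862 in the monotransgenic group of set 1. The sum was 83 to 137 in bitransgenic against 150 to 585 in monotransgenic mice of experiment 2, and 77 to 200 in bitransgenic against 83 to 950 in monotransgenic mice of set 3. By limma *Ogn* and *Lum* fell after removal relative to monotransgenic mice, with differences of -4.16 (adjusted p = 0.0321) and -1.48 (adjusted p = 0.0468). *Ogn* also fell on the diet, at -4.37 (adjusted p = 0.038), and over the sets, at -2.61 (adjusted p = 0.0164), while *Dcn* and *Col1a2* passed in none of the comparisons. *Dcn* stood at -0.19 after removal, -0.01 on the diet and -0.06 over the sets, and *Col1a2* at 0.35, 0.50 and 0.09. Most of the summed intensity in monotransgenic mice of set 1 was that of *Ogn*. What part this has in the *C1ql2* values was not tested. *Rtn4r* did not vary in this way: the monotransgenic arrays stayed at 63.8 to 185, including those with little *C1ql2*.

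*C1ql3* codes for the partner of *C1ql2* at the same synapses. It had 3452, 4418 and 3308 units after doxycycline removal, 4552, 4872 and 4388 on the diet, and 5629, 5210 and 4742 in the monotransgenic group of set 1. All 3 arrays after removal lay under all monotransgenic arrays of the set, and after normalization also under all arrays of the diet. The difference from monotransgenic mice was -0.54 ± 0.17 (limma adjusted p = 0.317) and that from the diet group -0.41 ± 0.17 (adjusted p = 0.868). In experiment 2 the intensity was 4289, 3905 and 4520 in bitransgenic mice, against 5152, 3371 and 6229 in monotransgenic mice, a difference of -0.18 ± 0.17 (adjusted p = 0.64). Set 3 gave 3079, 3509 and 3293 in bitransgenic mice, against 4947, 3331 and 4780 in monotransgenic mice, a difference of -0.40 ± 0.17 (adjusted p = 1). The low monotransgenic array of set 3 was array 2, as for *C1ql2*, but in experiment 2 it was array 2 and not array 1. Over the 3 sets *C1ql3* averaged -0.37 ± 0.10 (adjusted p = 0.108, exact permutation p = 0.0095). In the fit to set 1 alone, the difference from monotransgenic mice passed (adjusted p = 0.013). The settings gave 0.013 to 0.585 for this adjusted p, apart from leaving out single arrays, which gave 0.205 to 0.769. The mean over sets was -0.43 (adjusted p = 0.0138) without array 2 of the monotransgenic mice in set 3, and -0.44 (adjusted p = 0.0284) without array 2 of those in experiment 2. Over all single arrays left out, that mean ran from -0.44 to -0.31, with a limma adjusted p of 0.0138 to 0.259. The other 2 probe sets of *C1ql3* had means over sets of -0.48 and -0.56.

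*Glis3*, a zinc finger transcription factor, had the lowest p of the members against monotransgenic mice in set 1. Its intensity was 98.75, 151.6 and 174.4 after doxycycline removal, 114.4, 110.9 and 137.6 on the diet, and 336.2, 280.9 and 362 in the monotransgenic group. Both bitransgenic groups lay below every monotransgenic array, and they overlapped each other. The difference from monotransgenic mice was -1.10 ± 0.24 after removal (adjusted p = 0.0967) and -1.32 ± 0.24 on the diet (adjusted p = 0.0801), where *Glis3* ranked 4 among all genes tested by p. In the fit to set 1 alone both passed, with adjusted p = 0.00542 after removal and 0.00991 on the diet. Apart from leaving out single arrays, the settings gave an adjusted p of 0.00542 to 0.142 after removal and 0.0027 to 0.116 on the diet. Without single arrays it ran from 0.137 to 0.54 after removal and from 0.187 to 0.508 on the diet. Between removal and diet the difference was 0.23 ± 0.24 (adjusted p = 0.999). Values below the monotransgenic range were thus also seen on the diet, where *Rtn4r* was at 73.1 to 111.

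Outside set 1 *Glis3* overlapped between genotypes. In experiment 2 it had 214, 309.8 and 231 units in bitransgenic mice, against 252.3, 181.3 and 317.8 in monotransgenic mice, a difference of 0.06 ± 0.24 (adjusted p = 0.919). In set 3 it had 178.8, 291.3 and 255.4 in bitransgenic mice, against 376.8, 219.7 and 319.6 in monotransgenic mice, a difference of -0.32 ± 0.24 (adjusted p = 1). The removal difference of set 1 minus that of experiment 2 was -1.16 ± 0.34 (adjusted p = 0.414), and minus that of set 3 it was -0.78 ± 0.34 (adjusted p = 1), so neither passed. Over the sets *Glis3* averaged -0.45 ± 0.14 (adjusted p = 0.165, exact permutation p = 0.0395). It has a single probe set on the array.

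*Prox1*, the homeobox factor that specifies granule cells and keeps them from a CA3 fate, had 582.3, 663 and 605.4 units after doxycycline removal, 610.2, 815.3 and 719.4 on the diet, and 664.2, 797.1 and 652.3 in the monotransgenic group of set 1. These groups overlapped, and *Prox1* differed by -0.19 ± 0.24 between removal and monotransgenic mice (adjusted p = 0.928), with a 95% interval of -0.69 to 0.30. In experiment 2 it had 477.1, 817.8 and 345.3 units in bitransgenic mice, against 513.4, 318.4 and 635.3 in monotransgenic mice, and neither group lay above the other. In set 3 it had 604.3, 675 and 509.1 in bitransgenic mice, against 907.5, 771.3 and 950.5 in monotransgenic mice, without overlap. That difference was -0.57 ± 0.24 (adjusted p = 1). Over the sets *Prox1* averaged -0.22 ± 0.14 (adjusted p = 0.551, exact permutation p = 0.19). A second, weaker probe set of *Prox1* went otherwise on overlap. In set 1 it had 159.1, 165.2 and 169.4 units after removal, below all arrays of the diet (197.2 to 285.6) and of the monotransgenic group (218.3 to 238.6). Those differences were -0.49 and -0.41. In set 3 its groups overlapped, at -0.32. The third probe set, at a median intensity of 23.27, gave 0.03, -0.17 and 0 for these 3 differences.

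*Rfx3*, a factor that binds X-box motifs and drives genes of cilia, had 1388, 1742 and 890.4 units after removal, 825.8, 1048 and 1118 on the diet, and 1562, 1389 and 1698 in the monotransgenic group. The diet group lay below the monotransgenic group, by -0.65 ± 0.22 (adjusted p = 0.896), and the removal group spanned both. In experiment 2 *Rfx3* had 1151, 1452 and 1169 units in bitransgenic mice, against 1126, 1144 and 1551 in monotransgenic mice. Set 3 gave 1183, 1768 and 1043 in bitransgenic mice, against 1875, 1725 and 2021 in monotransgenic mice, a difference of -0.55 ± 0.22 (adjusted p = 1), with array 2 of the bitransgenic mice inside the monotransgenic range. The mean over sets was -0.31 ± 0.12 (adjusted p = 0.31, exact permutation p = 0.0488).

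*Calb1* codes for calbindin, the calcium buffer that fills mature granule cells and their mossy fibres. It had 4290, 5777 and 4450 units after removal, 5350, 5469 and 3755 on the diet, and 7045, 6522 and 5597 in the monotransgenic group. After normalization both bitransgenic groups lay below every monotransgenic array, although on the deposited scale array 2 of the removal group, at 5777, passed the lowest monotransgenic array, at 5597. *Calb1* differed from monotransgenic mice by -0.48 ± 0.14 after removal (adjusted p = 0.245) and by -0.37 ± 0.14 on the diet (adjusted p = 1). The other 3 probe sets of *Calb1* gave -0.67, -0.64 and -0.45 for the difference after removal. In experiment 2 it had 7162, 6760 and 6200 units in bitransgenic mice, against 6564, 5395 and 7492 in monotransgenic mice, and in set 3 bitransgenic mice had 4444, 4414 and 4813, against 5659, 4115 and 4451 in monotransgenic mice. Both pairs overlapped, with differences of 0.08 ± 0.14 and -0.04 ± 0.14 (adjusted p = 0.824 and 1). The removal difference of set 1 minus that of experiment 2 was -0.56 ± 0.20 (adjusted p = 0.532), which did not pass.

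*Dsp* codes for desmoplakin, a plaque protein of desmosomes. It had 4354, 3559 and 3703 units after removal, 3514, 3308 and 3672 on the diet, and 4629, 3537 and 3670 in the monotransgenic group of set 1, and the groups overlapped. In experiment 2 it had 4159, 4728 and 4442 units in bitransgenic mice, against 6004, 4675 and 3829 in monotransgenic mice. Set 3 gave 2899, 3455 and 3865 in bitransgenic mice, against 4285, 2804 and 3965 in monotransgenic mice. Its mean over sets was the nearest to 0 of the 10, at -0.10 ± 0.08 (adjusted p = 0.678), with a 95% interval of -0.27 to 0.07.

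*Npnt* codes for nephronectin, a matrix ligand of integrins. It had 728.6, 883.3 and 718.3 units after removal, 879.9, 772.9 and 758.2 on the diet, and 1086, 963.8 and 960.9 in the monotransgenic group. Both bitransgenic groups of set 1 lay below the monotransgenic group, by -0.38 ± 0.15 after removal (adjusted p = 0.487) and by -0.32 ± 0.15 on the diet (adjusted p = 1). In experiment 2 it had 740.4, 1092 and 839 units in bitransgenic mice, against 711, 740.6 and 935.2 in monotransgenic mice, and in set 3 bitransgenic mice had 717.8, 720.8 and 590.1, against 761.4, 673.8 and 867.9 in monotransgenic mice. Those pairs overlapped, with differences of 0.08 ± 0.15 and -0.19 ± 0.15.

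*Tdo2* codes for tryptophan 2,3-dioxygenase, which opens the kynurenine pathway and which granule cells express as they mature. It had 440.2, 792.7 and 904 units after removal, 808.4, 779.6 and 609.9 on the diet, and 478.5, 587 and 555 in the monotransgenic group of set 1. The diet group lay above the monotransgenic group, by 0.43 ± 0.38 (adjusted p = 1), and the removal group overlapped both. In experiment 2 *Tdo2* had 972.6, 1122 and 1145 units in bitransgenic mice, against 1308, 893.4 and 471.5 in monotransgenic mice. In set 3 it had 1158, 1254 and 979.3 in bitransgenic mice, against 439.9, 1422 and 390.7 in monotransgenic mice, a difference of 0.85 ± 0.38 (adjusted p = 1), or 0.52 (adjusted p = 1) with the shared title number as a factor. Array 2 of the monotransgenic mice in set 3 and array 1 of those in experiment 2, lowest in *C1ql2*, were the highest in *Tdo2* of their sets. Without that array of set 3 the difference there was 1.46 (adjusted p = 0.0287), and the mean over sets, 0.50 ± 0.22 (adjusted p = 0.365, exact permutation p = 0.081), was 0.70 (adjusted p = 0.0222). Over all single arrays left out, the *Tdo2* difference in set 3 ran from 0.50 to 1.46. The mean over sets then ran from 0.37 to 0.70, with a limma adjusted p of 0.0222 to 0.631. The other 2 probe sets of *Tdo2* had means over sets of 0.43 and 0.37.

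*Il16*, which codes for the precursor of a cytokine and for a scaffold protein with PDZ domains, had 210, 237.4 and 253.1 units after removal, 249.6, 180.5 and 188.6 on the diet, and 182.8, 149.9 and 221.3 in the monotransgenic group. These overlapped, as did experiment 2, with 215.4, 175.9 and 205.6 units in bitransgenic mice, against 181.1, 338.7 and 137.7 in monotransgenic mice. Set 3 gave 353.2, 310.9 and 312.6 units in bitransgenic mice, against 158.3, 297.7 and 157.5 in monotransgenic mice. There the bitransgenic group lay above the monotransgenic group without overlap, by 0.70 ± 0.26 (adjusted p = 1), with monotransgenic array 2 just below it. *Il16* averaged 0.36 ± 0.15 over the sets (adjusted p = 0.33, exact permutation p = 0.062).

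**Figure D2:**
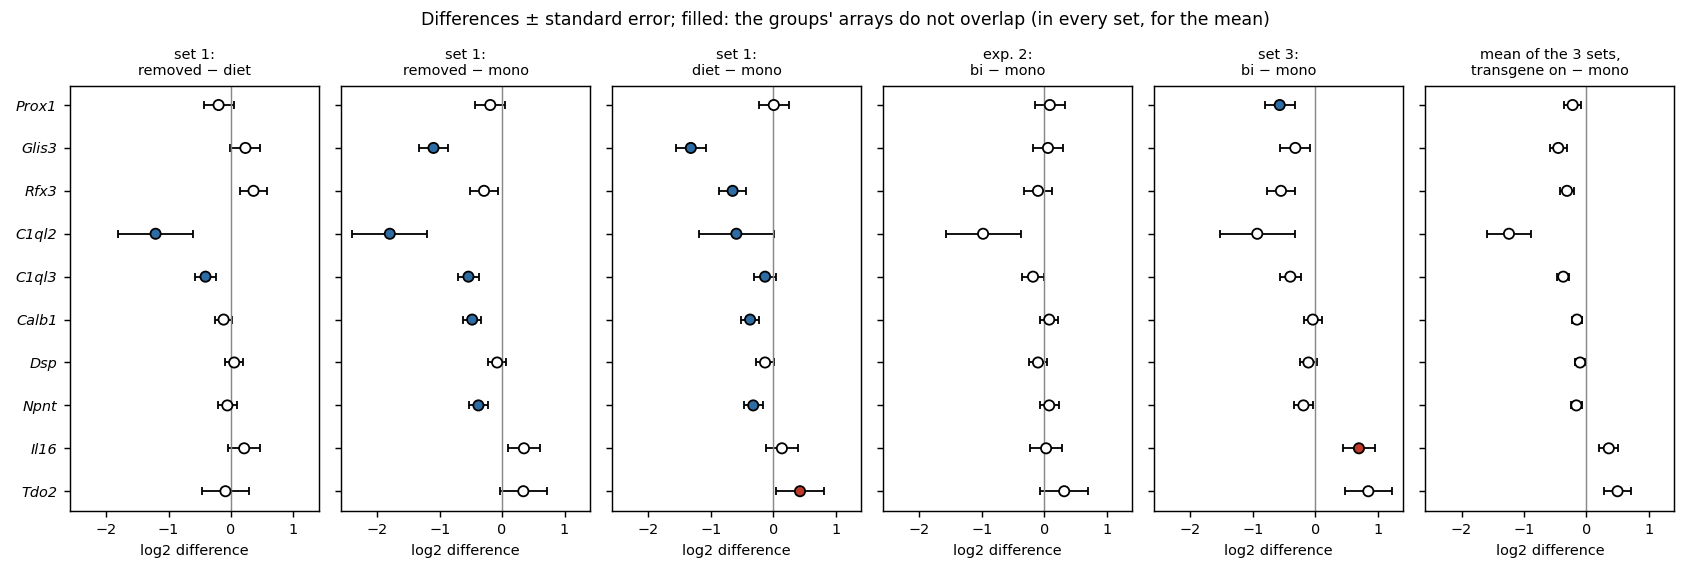
Log2 difference of each granule cell identity gene in the comparisons within set 1, experiment 2 and set 3 and in the mean over sets. Bars are limma standard errors, which are narrower than 95% intervals, and negative values are lower in the first-named group. After doxycycline removal relative to monotransgenic mice, *C1ql2* lies at -1.80 and *Glis3* at -1.10, and *Tdo2* and *Il16* lie on the positive side of the mean.

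Taken as a set, 0 of the 10 members passed the threshold in any comparison by limma, so the counts that follow describe direction and size. After removal relative to monotransgenic mice, 8 were lower and 2 higher, 5 had an unadjusted p under 0.05, and the groups of 5 did not overlap, all lower. Of all genes in that comparison 0.072% passed, 7.86% had an unadjusted p under 0.05, and 11.4% were lower and 10.8% higher without overlap. The median difference of the members was -0.34, against -0.01 over all genes. Summed marker intensities of some other cell types also lay apart in these groups, while those of general neurons overlapped, at 17746 to 19304 against 16034 to 19820. After removal, against monotransgenic mice, the sum was 332 to 420 against 464 to 524 for CA1, 800 to 937 against 1033 to 1076 for CA3, 991 to 1160 against 1249 to 1696 for microglia and 3701 to 4295 against 4445 to 4852 for neocortex and striatum. On the diet the last of these was 3847 to 4072. After removal, 0 genes of these 4 lists passed the threshold. Most of each sum was 1 gene: *Wfs1* for CA1, *Cpne4* for CA3, *Csf1r* for microglia and *Rasgrf2* for neocortex and striatum. Relative to monotransgenic mice, 3 CA1, 4 CA3, 3 microglia and 2 neocortex and striatum markers were lower. The higher ones numbered 2, 1, 3 and 2. In experiment 2 the neocortex and striatum sum went the other way, at 4406 to 4798 in bitransgenic against 3720 to 4251 in monotransgenic mice. The sums for CA1, CA3 and microglia overlapped there, and all 4 overlapped in set 3. What part these cell types have in the values of the granule cell genes was not tested. On the diet relative to monotransgenic mice 7 of the granule cell genes were lower and 3 higher, 4 had an unadjusted p under 0.05, and 6 were lower and 1 higher without overlap, with a median of -0.22 against 0 for all genes. There 0.024% of all genes passed, 3.85% had an unadjusted p under 0.05, and 7.58% were lower and 7.3% higher without overlap. The removal and diet comparisons share the monotransgenic arrays, so their values are set side by side and not added up.

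After removal relative to the diet, 6 members were lower and 4 higher. One, *C1ql3*, had an unadjusted p under 0.05, and 2, the *C1ql* genes, were lower without overlap. The background was 0.032% of genes past the threshold, 5.04% with an unadjusted p under 0.05, and 8.25% lower and 7.99% higher without overlap, and the medians were -0.08 for the members and -0.01 for all genes. In experiment 2, 4 members were lower and 6 higher, 0 had an unadjusted p under 0.05 and 0 lay apart, with a median of 0.05 against 0.02. All genes gave 0.096% past the threshold, 14.4% with an unadjusted p under 0.05, and 3.57% lower and 5.12% higher without overlap. In set 3, 8 were lower and 2 higher and 5 had an unadjusted p under 0.05. *Prox1* lay apart below and *Il16* apart above, and the median was -0.25 against 0.03. All genes gave 0% past the threshold, 4.19% with an unadjusted p under 0.05, and 4.72% lower and 8.78% higher without overlap.

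Over the 3 sets 8 members averaged below 0 and 2, *Il16* and *Tdo2*, above 0, with 6 at an unadjusted p under 0.05 and a median of -0.19 against 0.01. Of all genes 0.072% passed and 11.8% had an unadjusted p under 0.05. No member lay apart in every set, as did 0.048% of genes on the lower and 0.088% on the higher side. *Rfx3*, *C1ql2*, *C1ql3*, *Dsp*, *Il16* and *Tdo2* had 1 sign in all 3 sets, while *Prox1*, *Glis3*, *Calb1* and *Npnt* had a positive difference in experiment 2. The test of differences between sets passed for 0 members, against 0% of all genes for set 1 and experiment 2, 0% for set 1 and set 3 and 0% for experiment 2 and set 3. The counts at an unadjusted p under 0.05 were 3, 2 and 0 members, against 7.91%, 3.5% and 8.09% of all genes in those tests.

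**Figure D3:**
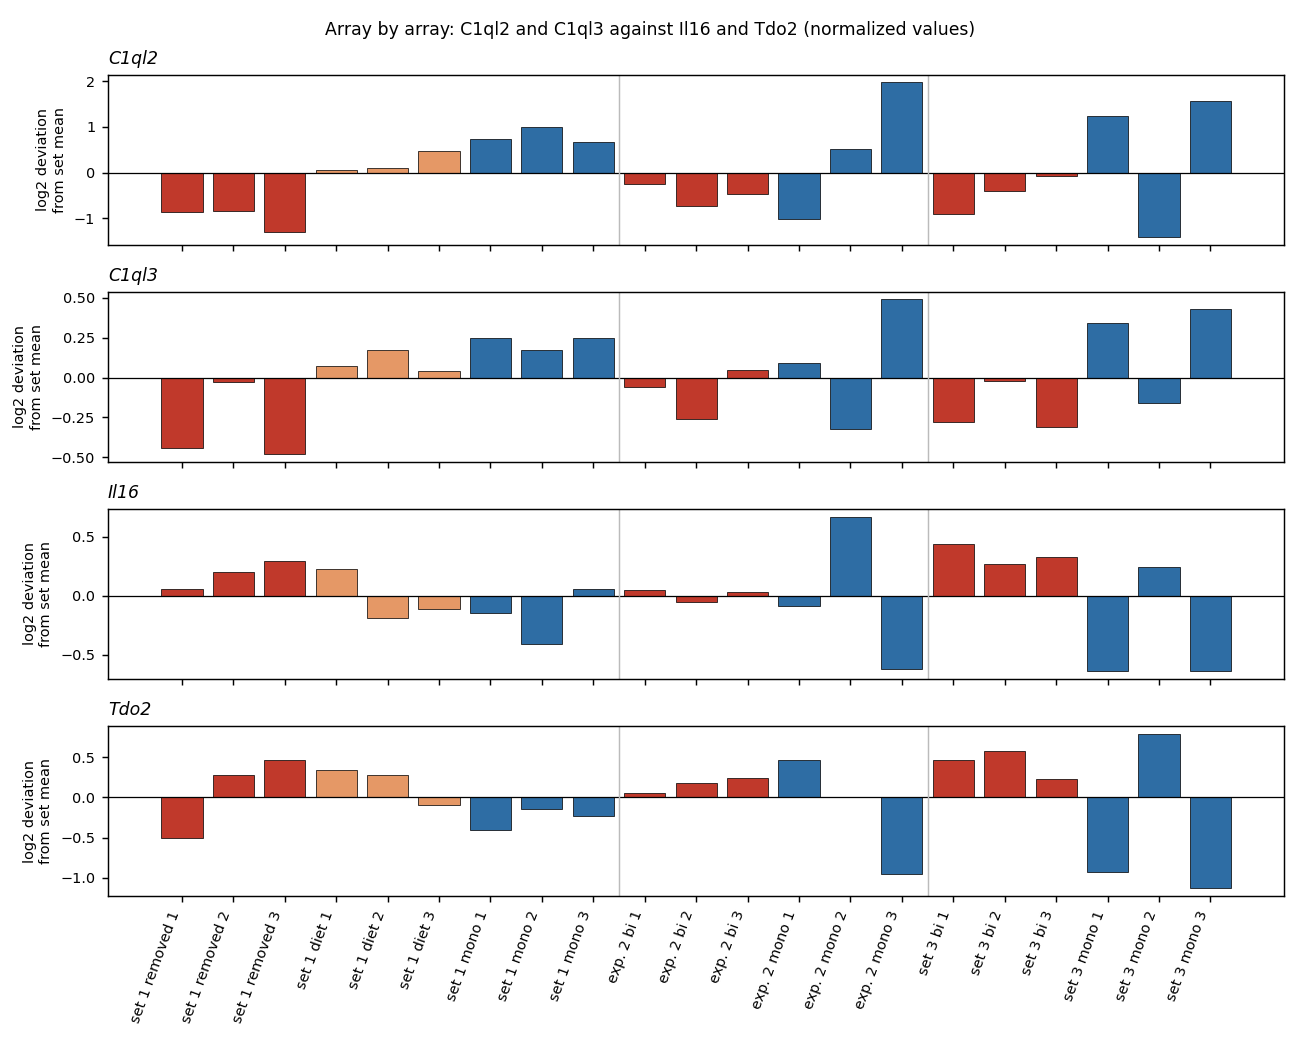
Deviation of *C1ql2*, *C1ql3*, *Il16* and *Tdo2* from the mean of the set on each array (log2 units), with arrays grouped as in the other plots. In set 3, *C1ql2* is low and *Tdo2* and *Il16* are high on monotransgenic array 2 as on the bitransgenic arrays, while monotransgenic arrays 1 and 3 show the opposite.

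Pooled over the sets, the members varied together across arrays in 2 blocs. With the mean of each set removed, 29 of the 45 pairs had a positive Pearson r over the 21 arrays and 16 a negative one, from -0.82 to 0.77 with a median of 0.33. Every negative pair joined *Il16* or *Tdo2* to 1 of the other 8 genes, while *Il16* and *Tdo2* had an r of 0.75 with each other. The highest was *C1ql2* with *C1ql3*, at 0.77 (Spearman rho 0.73, and 0.66 without 2 arrays), with 0.88 in set 1, 0.56 in experiment 2 and 0.86 in set 3. *C1ql2* with *Tdo2* was the lowest at -0.82 (rho -0.79, and -0.71 without 2 arrays), with -0.43 in set 1, -0.96 in experiment 2 and -0.97 in set 3. *Calb1* and *Npnt* had an r of 0.75, *C1ql3* and *Il16* -0.79 and *Prox1* and *Il16* -0.77. *Dsp* was positive with the other 7 genes of its bloc, from 0.01 with *Calb1* and 0.05 with *Prox1* to 0.41 with *Glis3*. It was at -0.29 with *Il16* and -0.49 with *Tdo2*. Within experiment 2 these signs were reversed, from -0.82 with *Calb1* to -0.10 with *Glis3*, and at 0.40 with *Il16* and 0.68 with *Tdo2*. In set 1 *Dsp* was at -0.47 with *Prox1*, -0.01 with *Calb1* and 0.05 with *Il16*, while in set 3 all its pooled signs held. The arrays share hybridisation, scaling and group differences, so these correlations describe the arrays and carry no test.

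**Figure D4:**
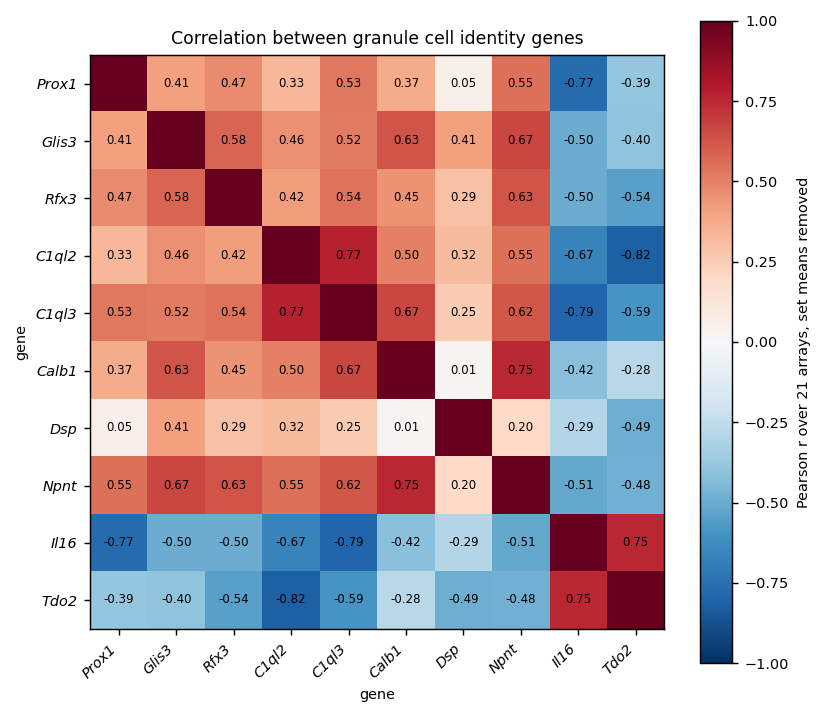
Pearson r between each pair of granule cell identity genes over the 21 arrays, after the mean of each set was removed (colour scale from -1 to 1). *Il16* and *Tdo2* are negative with the other 8 genes and positive with each other at 0.75.

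The genes most like a member by the same measure, over 21 arrays, were *Rasl10a* (r 0.94), *Chst7* (0.93) and *Cxcl12* (0.92) for *C1ql2*. *Cxcl12*, a chemokine, ranged in intensity from 89.4 to 2435. For *Prox1* they were *Rbm28* (0.89), *Nek7* (0.87) and *Macrod2* (0.86), and for *Calb1* *Stard13* (0.81), *Boc* (0.80) and *Pllp* (0.80). Some of these genes had low levels, with intensities of 10.38 to 126.3 for *Chst7*, 8.147 to 46.19 for *Boc* and 4.313 to 40.45 for *Pllp*.

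Where a gene had further probe sets, they mostly ran the same way, but *C1ql2* and *Glis3* had 1 probe set each. Of 15 further probe sets that passed the filter, all 15 had the sign of the chosen probe set for the mean over sets. The number was 14 in 4 of the comparisons and 10 after removal relative to the diet. The 4 that did not pass the filter had low levels, with median intensities of 0.9335 to 11.93.

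**Figure D5:**
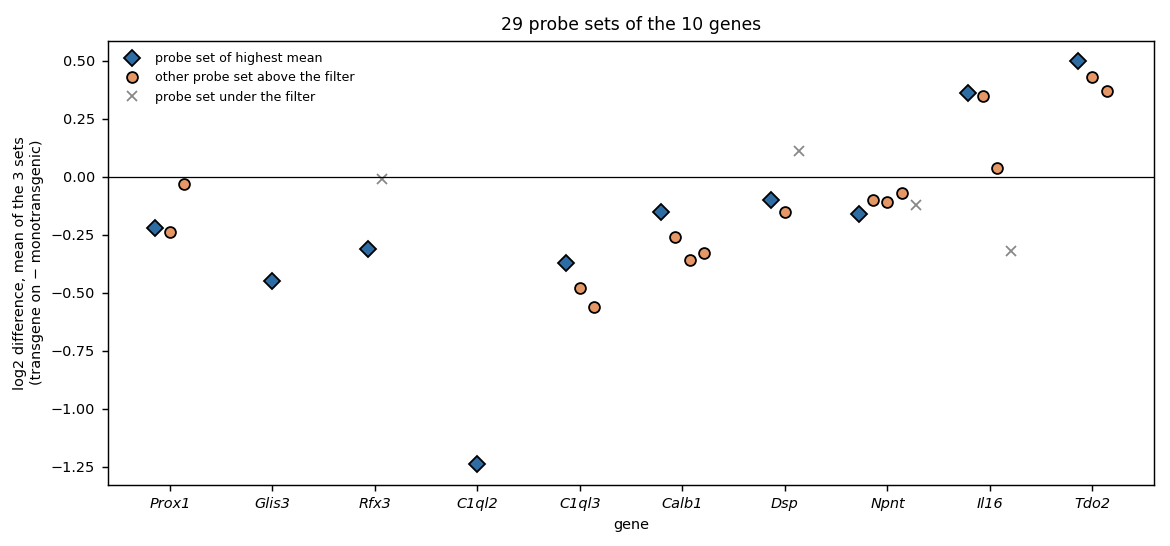
Mean over the 3 sets of the within-set log2 difference for each of the 29 probe sets, grouped by gene, with the probe set used for each gene set apart from the others. The 3 probe sets of *C1ql3* lie at -0.37, -0.48 and -0.56, and those of *Tdo2* at 0.50, 0.43 and 0.37.

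Another list of 16 granule cell genes had 15 above the filter, and 0 of the 15 passed in any of the 6 comparisons by limma. Its median differences were 0 for removal relative to the diet, 0.09 for removal and -0.10 for the diet relative to monotransgenic mice, -0.13 in experiment 2, -0.01 in set 3 and -0.14 over the sets. *Stxbp6*, which binds syntaxin, had the lowest p over the sets, with a mean of -0.44 ± 0.10 (adjusted p = 0.0684) and -0.48, -0.41 and -0.43 in set 1 after removal relative to monotransgenic mice, in experiment 2 and in set 3. *Trpc6*, a cation channel gene, differed by -1.32 ± 0.45 after removal relative to monotransgenic mice (adjusted p = 0.36), and *Neurod2*, a neuronal bHLH factor gene, by 0.71 ± 0.25 (adjusted p = 0.386). After removal relative to the diet, *Plekha2* stood at 0.66 ± 0.18 (adjusted p = 0.334) and *Sema5b*, a semaphorin gene, at -0.91 ± 0.30 (adjusted p = 0.59). The summed intensity of the list lay apart in set 3, at 25147 to 26474 in bitransgenic against 28610 to 30050 in monotransgenic mice. It overlapped in the other within-set comparisons. Of 7 markers of immature granule cells and progenitors, 6 lay above the filter and 0 passed in any comparison. Their sum lay apart in experiment 2 only, at 574 to 778 in bitransgenic against 816 to 1047 in monotransgenic mice.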

How the data were processed

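The deposited value is 1 intensity for each probe set on each array, on a linear scale. In these values the mean of each array without the lowest and highest 2% is 150. The scaling step and its tool were not given in the sources used here. Detection calls were not used. Of 45101 probe sets, 64 were controls, 34945 carried 1 gene symbol, 932 several and 9160 none, and 34741 matched RefSeq genes by Entrez ID. After log2(value + 16), array medians ran from 5.19 to 5.49, and because this spread of 0.30 exceeded a limit of 0.25, arrays were quantile normalized. Probe sets in the upper 60% by mean level stayed in (27022, with a mean log2 from 4.90), and the highest of these stood for its gene. Intensities in the text are as deposited, and differences, their overlap and correlations are from normalized log2 values.

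Under R 4.3.3, with version 1.17.8 of the data.table package, a fit in limma 3.58.1 had 1 coefficient per group over all 21 arrays and 14 residual degrees of freedom, and was tested on simulated data. Tests were two-sided, with Benjamini-Hochberg adjustment over the 12499 genes and a threshold of 0.05. Single values over the sets were tested by exact permutation. The number of arrays limits the precision. Promoter windows are from RefSeq (GRCm38.p6), and figures were drawn with matplotlib 3.10.9 in Python 3.11.15. The members and gene lists were chosen with earlier results of these data known. All 10 members were named in every comparison, with up to 4 other granule cell genes of lowest p and the 3 genes most like *Prox1*, *Calb1* and *C1ql2*. Markers named for their values, such as *Ogn*, were chosen after these were seen. The alternatives were array weights, a fit to each set alone, pseudocounts of 1 and 64, no filter, no normalization beyond the deposited scale, centring each array on its 75th percentile, averaging the probe sets of a gene, leaving out the arrays of highest actin ratio in experiment 2, the title number before the hyphen as a factor in set 3 and leaving out each array.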

Additional observations from a re-analysis of the deposited data

How the results depend on the processing

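Over the 10 genes and 6 comparisons, other settings gave 500 values, of which 466 kept their direction and side of the threshold, 17 passed it and 17 changed sign. Leaving out single arrays gave 480, of which 455 kept both, 6 passed and 19 changed sign. The members past the threshold, 0 in the values reported, were 1 with a fit within the set for removal against diet (85 genes in all, against 4), 3 for removal against monotransgenic mice with that fit (330, against 9) or with array weights (254), and 1 for diet against monotransgenic mice under each (32 and 41, against 3). Over the sets they were 7 with array weights (1374 genes, against 9) and 1 without the arrays of highest actin ratio (415). Without single arrays they were 0 to 1 in set 3 and 0 to 3 over the sets, the highest of each without monotransgenic array 2 of set 3 (73 genes in all, against 0, and 316, against 9). The members' median was -0.13 in experiment 2 with array weights, against 0.05. Without single arrays it ran from -0.18 to 0 for removal against diet, from -0.49 to -0.25 for removal against monotransgenic mice, from -0.12 to 0.06 in experiment 2, where leaving out array 2 of either genotype or monotransgenic array 1 turned its sign, and from -0.41 to -0.17 in set 3. In the fit within the set, the spread of a gene comes from the arrays of that set alone. That fit gave 0 genes in experiment 2, against 12, and 1 in set 3, against 0. The causes of these changes were not tested.

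None of the values that changed sign passed, but not all of the changes were small. In experiment 2, array weights gave -0.47 for *Prox1*, against 0.09 in the values reported. They also gave -0.15 for *Glis3*, -0.07 for *Calb1*, -0.10 for *Npnt* and 0.02 for *Dsp*. Without the arrays of highest actin ratio *Prox1* and *Npnt* were at -0.13 and *Glis3* at -0.04, on the deposited scale *Il16* was at -0.04, and with centring on the 75th percentile *Rfx3* was at 0.13 and *Dsp* at 0.04. In set 1, that centring gave 0.05 for *Calb1* between removal and diet and 0.02 for *Dsp* between removal and monotransgenic mice. Averaging probe sets gave -0.03 for *Dsp* and 0.02 for *Npnt* between removal and diet and -0.04 for *Prox1* between diet and monotransgenic mice. Without single arrays of experiment 2, values ran from -0.21 to 0.35 for *Prox1*, -0.17 to 0.23 for *Glis3*, -0.19 to 0.05 for *Rfx3*, -0.38 to 0.03 for *C1ql3*, -0.01 to 0.21 for *Calb1*, -0.05 to 0.19 for *Npnt*, -0.27 to 0.37 for *Il16* and -0.08 to 0.63 for *Tdo2*. Between removal and diet they ran from -0.01 to 0.09 for *Dsp*, -0.16 to 0.01 for *Npnt* and -0.29 to 0.20 for *Tdo2*, for *Dsp* between removal and monotransgenic mice from -0.17 to 0.01, for *Prox1* between diet and monotransgenic mice from -0.10 to 0.11, and for *Calb1* in set 3 from -0.12 to 0.06. With the shared title number of set 3 as a factor, 0 members passed, *Calb1* turned to 0.02 and the median was -0.25. No paired analysis was possible because the replicate numbers follow the order of deposit, and the title numbers shared by 2 pairs of arrays in set 3 have no meaning given in the labels.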
